A study of Homo sapiens with 18 samples.

Results

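The small heat shock proteins HSPB1, HSPB8 and CRYAB and the co-chaperone BAG3 were described across 6 groups of NCI-H295R, a steroid-producing cell line from a human carcinoma of the adrenal cortex. The 4 genes were found by their symbols among the 58870 genes of a table of expected counts, and each matched 1 row. All 4 had enough counts to enter the fit of 15787 genes. They were proposed as a set with results of these same libraries known, among them the lower CRYAB and HSPB8 with PIK75, and the set is defined by its comparison across all 6 groups. No comparison between the groups is therefore independent of the choice, so the members' values are given as a description with their errors and without p-values.

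Cells were left untreated or received a drug for 48 h, the label giving 20 nM for each treated group. The drugs were STA9090 (also named ganetespib), which blocks the chaperone HSP90, PIK75 (a PI3K inhibitor) and BGT226 (which blocks both PI3K and mTOR), alone or as the pairs STA9090+PIK75 and STA9090+BGT226. All groups were cultures of this single cell line, with 3 biological replicates each and 18 libraries in all. How the stated dose was divided in a combination, and what vehicle the untreated cells received, is not given in the sources used here.

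Small heat shock proteins share an alpha-crystallin domain, form oligomers, and hold unfolding proteins in a soluble state without using ATP. HSPB1 (HSP27) is the broadly expressed member that also binds actin and is phosphorylated by kinases downstream of p38. CRYAB (alpha-B crystallin) is abundant in lens and striated muscle. HSPB8 (HSP22) works in a complex with BAG3, which bridges it to HSP70 proteins and passes bound clients to autophagy. The heat shock factor HSF1 is held inactive by HSP90 and drives many chaperone genes when released.

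By the GENCODE 29 annotation on hg38, HSPB1 (ENSG00000106211.9 in the table) lies on the plus strand of chromosome 7, from 76302544 to 76304295. HSPB8 (ENSG00000152137.6) lies on the plus strand of chromosome 12, from 119178642 to 119221131. CRYAB (ENSG00000109846.8) lies on the minus strand of chromosome 11, from 111908565 to 111923722, and its span holds HSPB2 and overlaps C11orf52 and HSPB2-C11orf52 on the opposite strand. BAG3 (ENSG00000151929.9) lies on the plus strand of chromosome 10, from 119651370 to 119677819. These neighbours carried few counts: over all 18 libraries C11orf52 summed to 5, HSPB2 to 1 and HSPB2-C11orf52 to 0, against 353 for CRYAB. The pseudogenes HSPB1P1 and HSPB1P2 summed to 6.18 and 11 counts against 43371 for HSPB1, and a pseudogene inside HSPB8, AC084880.1, to 24.7 against 2049.

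Promoter sequence is shown for HSPB1 and HSPB8 because their windows held a match to the core of the heat shock element. Heat shock factors bind this element. The table of RefSeq promoters (GRCh38.p14) held 3 of the 4 members. In the 250 bases before the RefSeq start, both strands were searched for inverted pairs of the heat shock element unit, GAANNTTC and TTCNNGAA, each of which reads the same on both strands. Capitals mark a match. Each line runs 5′ to 3′ on the plus strand and shows, for HSPB1, the part of the window upstream of the GENCODE gene start (chr7:76302423-76302543) and, for HSPB8, 30 bases around the match (chr12:119178832-119178861), since GENCODE 29 places all of its window inside the gene.
HSPB1: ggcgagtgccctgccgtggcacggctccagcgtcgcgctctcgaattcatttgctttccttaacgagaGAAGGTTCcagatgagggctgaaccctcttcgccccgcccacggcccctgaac
HSPB8: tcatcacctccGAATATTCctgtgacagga

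HSPB1 held GAAGGTTC from 182 to 175 bases before the start, and HSPB8 held GAATATTC from 88 to 81 bases before it. The BAG3 window, 78.0% G and C, held neither motif. Of 35116 RefSeq promoter windows of this length, 5.78% held GAANNTTC, 6.62% held TTCNNGAA and 11.6% held at least 1 of them. A match describes the letters only.

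Library totals ran from 10.2 to 21.1 M counts. Of all counts 28.6% to 37.6% in untreated libraries, 35.9% to 40.3% with STA9090+PIK75 and 31.4% to 38.9% in the other treated libraries fell on 4 RNAs made by polymerase III, namely RN7SK, RN7SL1, RN7SL2 and RPPH1. Of 8 adrenocortical markers 7 had enough counts to be tested, and their summed level was 2092 to 2517 CPM (counts per 1 M, scaled by TMM) in untreated libraries, 1293 to 1485 CPM with PIK75 and 1000 to 1046 CPM with STA9090+PIK75. It was 2032 to 2636 CPM with STA9090, 2019 to 2136 CPM with BGT226 and 2395 to 2609 CPM with STA9090+BGT226, so that the sums of the 2 groups with PIK75 lay below all others. The sum hid markers that moved apart. With BGT226 the means of STAR, CYP11A1 and CYP17A1 were 215.1, 228.8 and 103.7 CPM, against 356.7, 321.7 and 262.9 CPM untreated. CYP21A2 was at 913.1 CPM with BGT226 and 1213 CPM with STA9090+BGT226, against 656.6 CPM untreated. HSD3B2 (63.5 against 49.9 CPM) and MC2R (6.41 against 4.73 CPM) were also higher with BGT226. Of 9 striated muscle markers, DES, ACTA1, MYH2, MYH7, TNNT3 and MYOD1 were at 0 in untreated libraries. TTN and TNNT1 alone had enough counts to be tested, and the list summed to 139.8 to 189.2 CPM in untreated libraries. Its sum was higher without overlap with PIK75 (254.5 to 279.1 CPM), BGT226 (274.2 to 295.1 CPM) and STA9090+BGT226 (306.3 to 360.1 CPM), and overlapped untreated cells with STA9090 (156.4 to 223.2 CPM) and STA9090+PIK75 (146.2 to 167.0 CPM). TTN made up nearly all of this sum, so it describes TTN rather than the list. Mean TTN was 168.3 CPM untreated, 266.7 with PIK75, 283.5 with BGT226 and 327.3 with STA9090+BGT226. Mean TNNT1 changed little, at 1.597, 1.6998, 1.579 and 1.716 CPM in the same order. Of 9 markers of leukocytes, endothelium and fibroblasts, 2 passed the count filter (CD14 and COL1A1), and the list summed to 8.96 to 12.3 CPM in untreated libraries, 1.34 to 2.37 CPM with STA9090+PIK75, 5.35 to 8.03 CPM with PIK75 and 6.73 to 9.99 CPM in the other groups. The low sum with STA9090+PIK75 was that of COL1A1, whose mean was 9.21 CPM untreated and 0.799 CPM in that combination. Mean CD14 went the other way, from 0.439 CPM untreated to 1.001 CPM with STA9090+PIK75. The part of these shifts in the results for PIK75, BGT226 and the combinations was not tested.

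In untreated cells the members stood far apart. Per kilobase of exon, HSPB1 was at 122.6 ± 7.84 CPM (SD, n = 3), above 98.6% of the tested genes with a length. BAG3 was at 13.5 ± 0.854 and HSPB8 at 3.96 ± 0.680 CPM per kilobase. CRYAB was lowest at 0.792 ± 0.0875 CPM per kilobase, at the 26.1th percentile. The order was the same when the mean transcript length stood in for the union of exons, with 207.9, 19.9, 10.6 and 3.10 CPM per kilobase. The levels that follow are CPM without division by length and serve to compare groups within 1 gene.

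**Figure D1:**
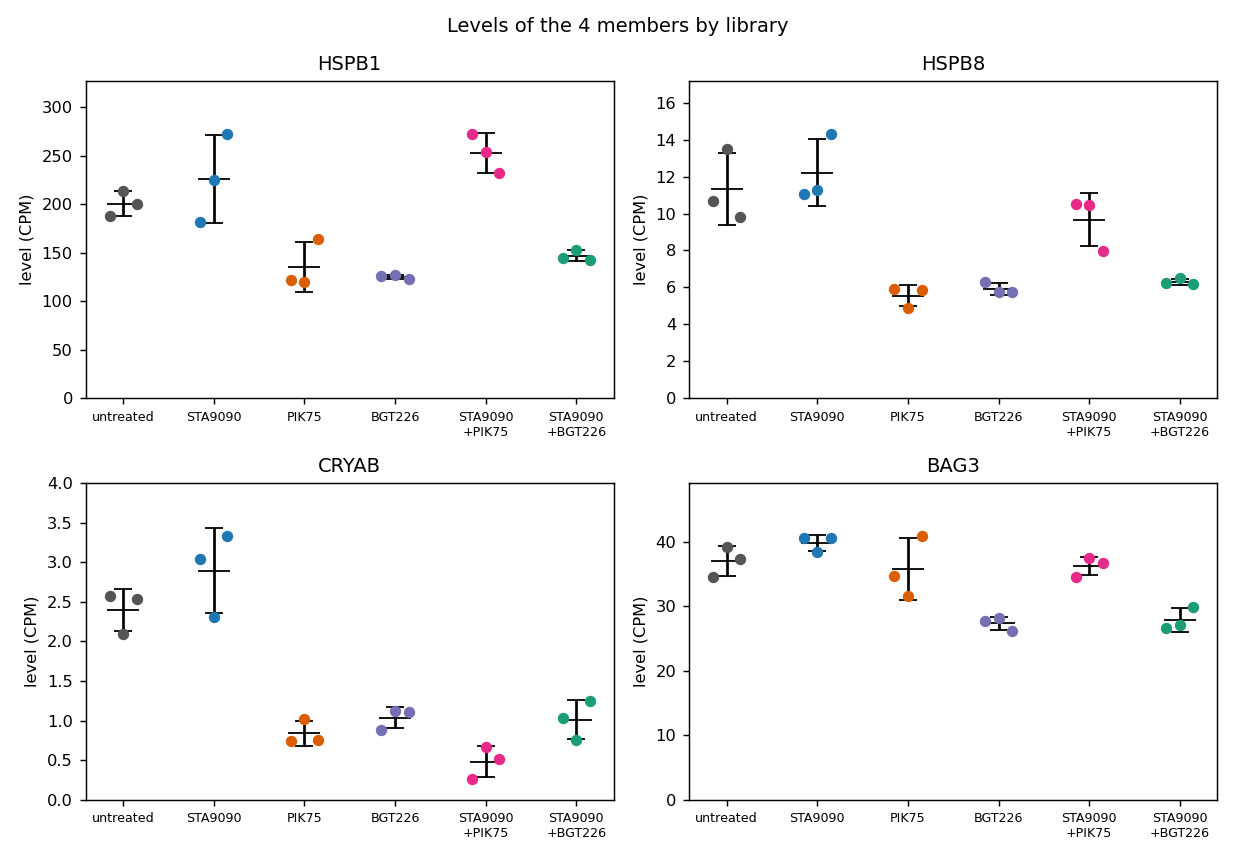
Level in CPM (vertical axes, from 0) of HSPB1, HSPB8, CRYAB and BAG3 in each of the 18 libraries (points) by group (horizontal axes), with the group mean and SD (bars). HSPB1 and HSPB8 were low with PIK75 (means 135.0 and 5.54 CPM) and higher with STA9090+PIK75 (252.6 and 9.66 CPM), whereas CRYAB was lowest in that combination (0.483 CPM).

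HSPB1 was lower with either PI3K inhibitor and was higher than in untreated cells with STA9090+PIK75. Untreated replicates 1, 2 and 3 were at 187.4, 213.1 and 200.4 CPM. PIK75 libraries were at 121.3, 119.3 and 164.4 CPM, and BGT226 libraries at 125.6, 126.9 and 122.6 CPM. All 6 lay below every untreated library, and PIK75 replicate 3 stood above the other PIK75 libraries. Mitochondrial mRNAs made up 8.69%, 7.77% and 5.52% of all counts in PIK75 replicates 1, 2 and 3. The log2 fold change of HSPB1 was -0.57 (SE 0.125) with PIK75 and -0.68 (SE 0.125) with BGT226. Since these are bulk samples, fewer cells of a type and less RNA per cell cannot be told apart here or below.

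STA9090 libraries held HSPB1 at 181.0, 224.8 and 272.3 CPM, a range that overlapped the untreated one (log2 fold change 0.17, SE 0.124). Of this group, replicate 3 was highest and replicate 1 lay below all untreated libraries. The value was 0.018 without STA9090 replicate 3 and 0.30 without STA9090 replicate 1. Mitochondrial mRNAs made up 9.73%, 8.11% and 6.39% of all counts in STA9090 replicates 1, 2 and 3. The share was 10.5%, 6.43% and 8.73% in STA9090+PIK75 replicates 1, 2 and 3, where replicate 1 held the most HSPB1. Over the 18 libraries HSPB1 and this share correlated at r = -0.19, and its part in the HSPB1 values was not tested. With STA9090+PIK75, HSPB1 was at 272.4, 253.7 and 231.6 CPM, above every untreated library (log2 fold change 0.33, SE 0.124). With STA9090+BGT226 it was at 144.7, 153.1 and 142.3 CPM, below every untreated library (log2 fold change -0.45, SE 0.124). The means thus ran from STA9090+PIK75 (252.6 ± 20.4 CPM, SD) through STA9090 (226.1 ± 45.6), untreated (200.3 ± 12.8), STA9090+BGT226 (146.7 ± 5.69) and PIK75 (135.0 ± 25.5) to BGT226 (125.0 ± 2.18). The highest mean was 2.02 times the lowest. Only the step from untreated to STA9090+BGT226 separated neighbours whose libraries did not overlap.

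HSPB8, the partner of BAG3, followed a like course at a lower level. Untreated libraries were at 10.7, 13.5 and 9.81 CPM. PIK75 libraries were at 5.90, 4.88 and 5.83 CPM and BGT226 libraries at 6.31, 5.74 and 5.75 CPM. None of these 6 reached the lowest untreated library, and the log2 fold changes of HSPB8 were -1.04 (SE 0.150) with PIK75 and -0.95 (SE 0.146) with BGT226.

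STA9090 alone left HSPB8 at 11.04, 11.3 and 14.3 CPM, within and just above the untreated range (log2 fold change 0.09, SE 0.136). With STA9090+PIK75 it was at 10.5, 10.4 and 7.99 CPM, and 2 of these libraries lay inside the untreated range (log2 fold change -0.24, SE 0.139). That HSPB8 value was -0.089 without untreated replicate 2 and -0.12 without STA9090+PIK75 replicate 3. With STA9090+BGT226 it was at 6.22, 6.49 and 6.21 CPM, close to BGT226 alone and below all untreated libraries (log2 fold change -0.85, SE 0.145). In the order of the means, STA9090, untreated and STA9090+PIK75 overlapped as neighbours, as did STA9090+BGT226, BGT226 and PIK75, and the libraries of STA9090+PIK75 and STA9090+BGT226 did not overlap.

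CRYAB was lower in all 4 groups that received a PI3K inhibitor and lowest with STA9090+PIK75. Untreated libraries were at 2.57, 2.10 and 2.54 CPM and STA9090 libraries at 3.05, 2.30 and 3.34 CPM (log2 fold change 0.27, SE 0.232), which overlapped. PIK75 libraries were at 0.737, 1.02 and 0.761 CPM and BGT226 libraries at 0.887, 1.116 and 1.113 CPM. The log2 fold change of CRYAB was -1.50 (SE 0.279) with PIK75 and -1.18 (SE 0.263) with BGT226.

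With STA9090+PIK75, CRYAB was at 0.268, 0.662 and 0.518 CPM, below every library of the other groups (log2 fold change -2.26 against untreated cells, SE 0.307). With STA9090+BGT226 it was at 1.04, 0.755 and 1.24 CPM, which overlapped BGT226 alone (log2 fold change -1.22 against untreated cells, SE 0.264). CRYAB rested on few counts, from 30 to 34 in an untreated library and from 3 to 9 with STA9090+PIK75. Pooled over a group, counting error alone (exact Poisson, 95%) allowed 1.93 to 2.92 CPM in untreated cells and 0.299 to 0.775 CPM with STA9090+PIK75. Without STA9090+PIK75 replicate 1, the library with 3 counts, the log2 fold change of that combination was -2.0, and without replicate 2 it was -2.54.

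BAG3 was the steadiest member, with a highest mean 1.46 times the lowest. Untreated libraries were at 34.5, 39.2 and 37.4 CPM and STA9090 libraries at 40.6, 38.5 and 40.6 CPM (log2 fold change 0.11, SE 0.0841). PIK75 libraries were at 34.7, 31.6 and 41.0 CPM and STA9090+PIK75 libraries at 34.6, 37.5 and 36.7 CPM, so that both groups overlapped untreated cells. The log2 fold change of BAG3 was -0.05 (SE 0.0849) with PIK75 and -0.03 (SE 0.0848) with STA9090+PIK75. The PIK75 value was 0.03 without PIK75 replicate 2 and -0.16 without PIK75 replicate 3.

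Both groups with BGT226 were lower for BAG3. BGT226 libraries were at 27.8, 28.1 and 26.2 CPM and STA9090+BGT226 libraries at 26.6, 27.1 and 29.97 CPM, all below every library of the other 4 groups. The log2 fold changes against untreated cells were -0.44 (SE 0.0862) and -0.41 (SE 0.0858).

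**Figure D2:**
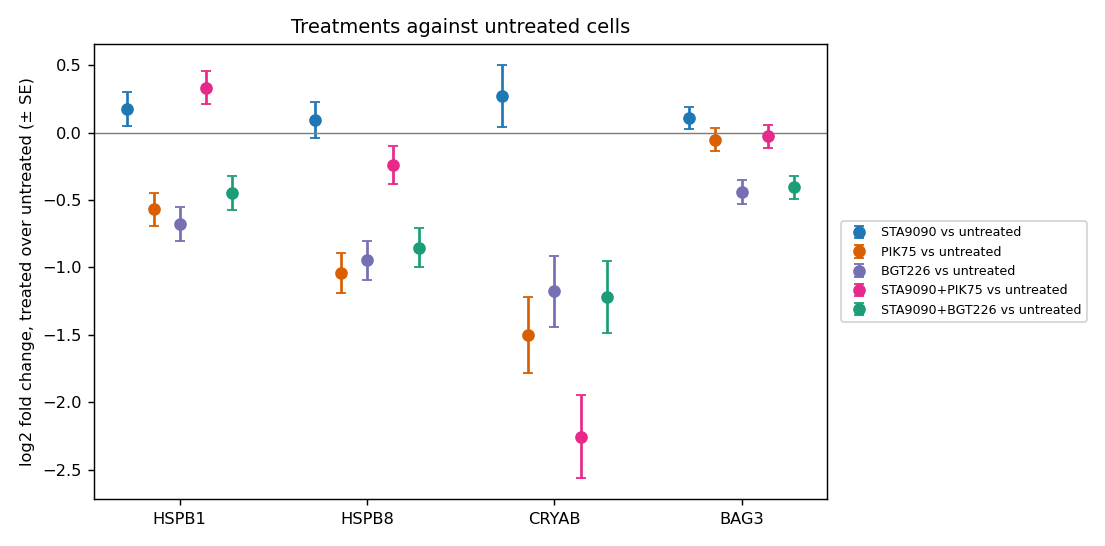
Log2 fold change against untreated cells (vertical axis, points, with SE as bars) of each member (horizontal axis) for the 5 treatments (colours). STA9090 alone lay near 0 for all 4 members, from 0.09 for HSPB8 to 0.27 for CRYAB, and STA9090+PIK75 lay at 0.33 for HSPB1 and -2.26 for CRYAB.

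Against untreated cells, members whose libraries did not overlap the untreated ones numbered 0 higher and 0 lower with STA9090, where 9.5% and 10.3% of all tested genes were so placed. With PIK75 there were 3 lower, beside 16.6% of all genes lower in that way, and with BGT226 there were 4 lower, beside 23.3%. With STA9090+PIK75 there were 1 higher and 1 lower, beside 23.5% and 24.6%. With STA9090+BGT226 there were 4 lower, beside 24.9%. These comparisons share the untreated libraries and took part in the choice of the members, so nothing is read from the counts.

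PIK75 and BGT226, given at the same stated dose and time, left HSPB1, HSPB8 and CRYAB at levels whose libraries overlapped. The log2 difference of PIK75 from BGT226 was 0.11 (SE 0.125) for HSPB1, -0.09 (SE 0.160) for HSPB8 and -0.32 (SE 0.310) for CRYAB. BAG3 was higher with PIK75 in every library (0.39, SE 0.0866). Of all tested genes 23.9% were higher without overlap in this comparison.

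Set against its own background, the addition of STA9090 to PIK75 went with higher HSPB1 and HSPB8 and lower CRYAB. HSPB1 differed by a log2 fold change of 0.90 (SE 0.125), or 1.87-fold, and HSPB8 by 0.80 (SE 0.153), or 1.74-fold. CRYAB differed by -0.76 (SE 0.363), and BAG3 by 0.02 (SE 0.0853) with overlapping libraries. The CRYAB value was -0.50 without STA9090+PIK75 replicate 1 and -1.04 without replicate 2. In this comparison 2 members were higher and 1 lower without overlap, beside 19.4% and 20.6% of all tested genes.

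Added to BGT226, STA9090 went with smaller differences. HSPB1 was higher in every library (0.23, SE 0.125), and HSPB8 (0.09, SE 0.155), BAG3 (0.03, SE 0.0874) and CRYAB (-0.04, SE 0.294) overlapped BGT226 alone. Of all tested genes 13.4% were higher without overlap here.

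**Figure D3:**
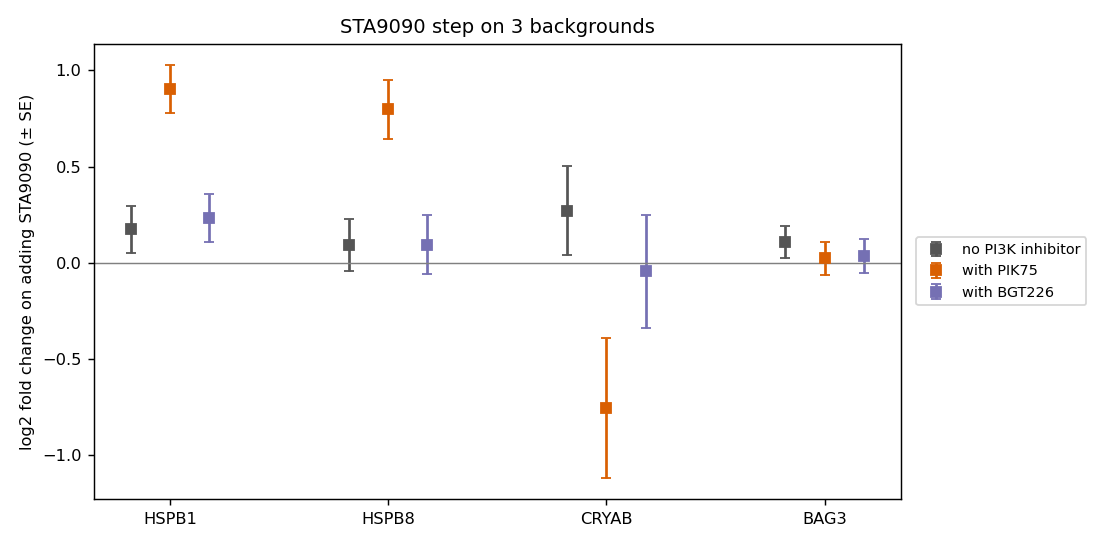
Log2 fold change on adding STA9090 (vertical axis, squares, with SE as bars) for each member (horizontal axis) without a PI3K inhibitor, with PIK75 and with BGT226 (colours). With PIK75 the step was 0.90 for HSPB1, 0.80 for HSPB8 and -0.76 for CRYAB, and BAG3 stayed between 0.02 and 0.11 on all 3 backgrounds.

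On the log2 scale, the interaction term is the STA9090 step with a PI3K inhibitor minus the STA9090 step without one. With PIK75 it was 0.73 (SE 0.176) for HSPB1, 0.70 (SE 0.204) for HSPB8, -1.03 (SE 0.431) for CRYAB and -0.08 (SE 0.120) for BAG3. With BGT226 it was 0.06 (SE 0.176), 0.001 (SE 0.191), -0.31 (SE 0.375) and -0.07 (SE 0.121) in the same order. The step with PIK75 exceeded that with BGT226 by 0.67 (SE 0.176) for HSPB1 and 0.70 (SE 0.218) for HSPB8, and differed by -0.71 (SE 0.467) for CRYAB and -0.01 (SE 0.122) for BAG3. The CRYAB value of this last comparison was -0.46 without STA9090+PIK75 replicate 1. The CRYAB interaction with PIK75 ranged from -0.77 to -1.31 when STA9090+PIK75 replicate 1 or replicate 2 was left out.

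PIK75 added to STA9090 left HSPB1 in an overlapping range (0.16, SE 0.124), while CRYAB (-2.53, SE 0.300), HSPB8 (-0.33, SE 0.139) and BAG3 (-0.14, SE 0.0844) were lower without overlap. BGT226 added to STA9090 left all 4 members lower without overlap, at -1.49 (SE 0.259) for CRYAB, -0.95 (SE 0.144) for HSPB8, -0.62 (SE 0.124) for HSPB1 and -0.51 (SE 0.0854) for BAG3. The shares of all tested genes lower in that way were 23.1% and 23.5%. Between the combinations, HSPB1 (0.78, SE 0.125), HSPB8 (0.61, SE 0.148) and BAG3 (0.38, SE 0.0861) were higher with STA9090+PIK75 than with STA9090+BGT226, and CRYAB was lower (-1.04, SE 0.344), beside 26.1% and 27.9% of all genes. Without STA9090+PIK75 replicate 1 this CRYAB value was -0.76, and without replicate 2 it was -1.32.

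The composition of the set shifted between groups. HSPB8 counts per BAG3 count were 0.306 ± 0.0416 in untreated libraries and 0.156 ± 0.0138 with PIK75 (SD, n = 3). The ratio was 0.267 ± 0.0444 with STA9090+PIK75, 0.217 ± 0.0118 with BGT226 and 0.227 ± 0.0173 with STA9090+BGT226. HSPB1 counts per CRYAB count were 84.5 ± 15.2 in untreated libraries and 79.5 ± 19.1 with STA9090 (59.4 to 97.6). With STA9090+PIK75 the ratio was 616 ± 349, from 383 to 1017. That last ratio divides by 3 to 9 CRYAB counts in a library, so its size and spread carry much counting error. The libraries of PIK75 (116.5 to 216), BGT226 (110.2 to 142) and STA9090+BGT226 (115 to 203) also lay above the highest untreated library at 102, and those of STA9090+PIK75 lay above all of them. Over the 18 libraries, the log2 levels of HSPB1 and HSPB8 correlated at r = 0.87, HSPB8 and BAG3 at 0.69 and HSPB1 and BAG3 at 0.70. CRYAB correlated at 0.55 with HSPB8, 0.38 with BAG3 and 0.18 with HSPB1. These describe 18 libraries that share treatments and scaling.

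By Pearson r of log2 levels over the 18 libraries, among 9863 or 9864 protein-coding genes of at least 5 CPM, the patterns closest to HSPB1 were those of HIST1H3I (0.92), EXOSC10 (0.92) and MRM2 (0.91). Closest to HSPB8 were RTN3 (0.91), CCL22 (0.90) and PSMB7 (0.90). TFE3 (0.95), RBM47 (0.95) and PAPSS2 (0.94) were closest to CRYAB, and MSRB2 (0.97), CKB (0.94) and DPP3 (0.94) to BAG3. No gene appeared in the 3 closest of more than 1 member.

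The genes around the members were taken from 9 lists of 57 genes. They covered other small heat shock proteins, other BAG proteins, partners of the HSPB8-BAG3 complex, cytoskeletal clients, heat shock factors and classical HSF1 targets. The remaining lists were kinases of HSPB1 (with the p38 kinase upstream of them), ligands of the BAG3 WW domain, and autophagy adaptors. Of the 57 genes 49 had enough counts. The lists were not made by the members' rule, but they too were chosen with earlier results of these data known. Their genes were tested with edgeR's quasi-likelihood test, adjusted over all 15787 genes by the Benjamini-Hochberg method. With STA9090, 4 rose and 0 fell (5 fell at an unadjusted p under 0.05, and DESeq2 called 2), beside 1.16% and 1.68% of all genes. With PIK75, 6 rose and 9 fell, beside 8.49% and 10.2%. With BGT226, 5 rose and 14 fell, beside 12.8% and 15.7%. With STA9090+PIK75, 10 rose and 11 fell, beside 18.3% and 20.1%, and with STA9090+BGT226, 8 rose and 15 fell, beside 19.4% and 20.4%. The median log2 fold change over the 49 genes was -0.01, -0.17, -0.14, 0.03 and -0.04 in that order, and over all tested genes it lay between 0.0019 and 0.032. Without BGT226 replicate 3, 9 fell with BGT226, and without STA9090+BGT226 replicate 2, 5 rose with STA9090+BGT226.

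**Figure D4:**
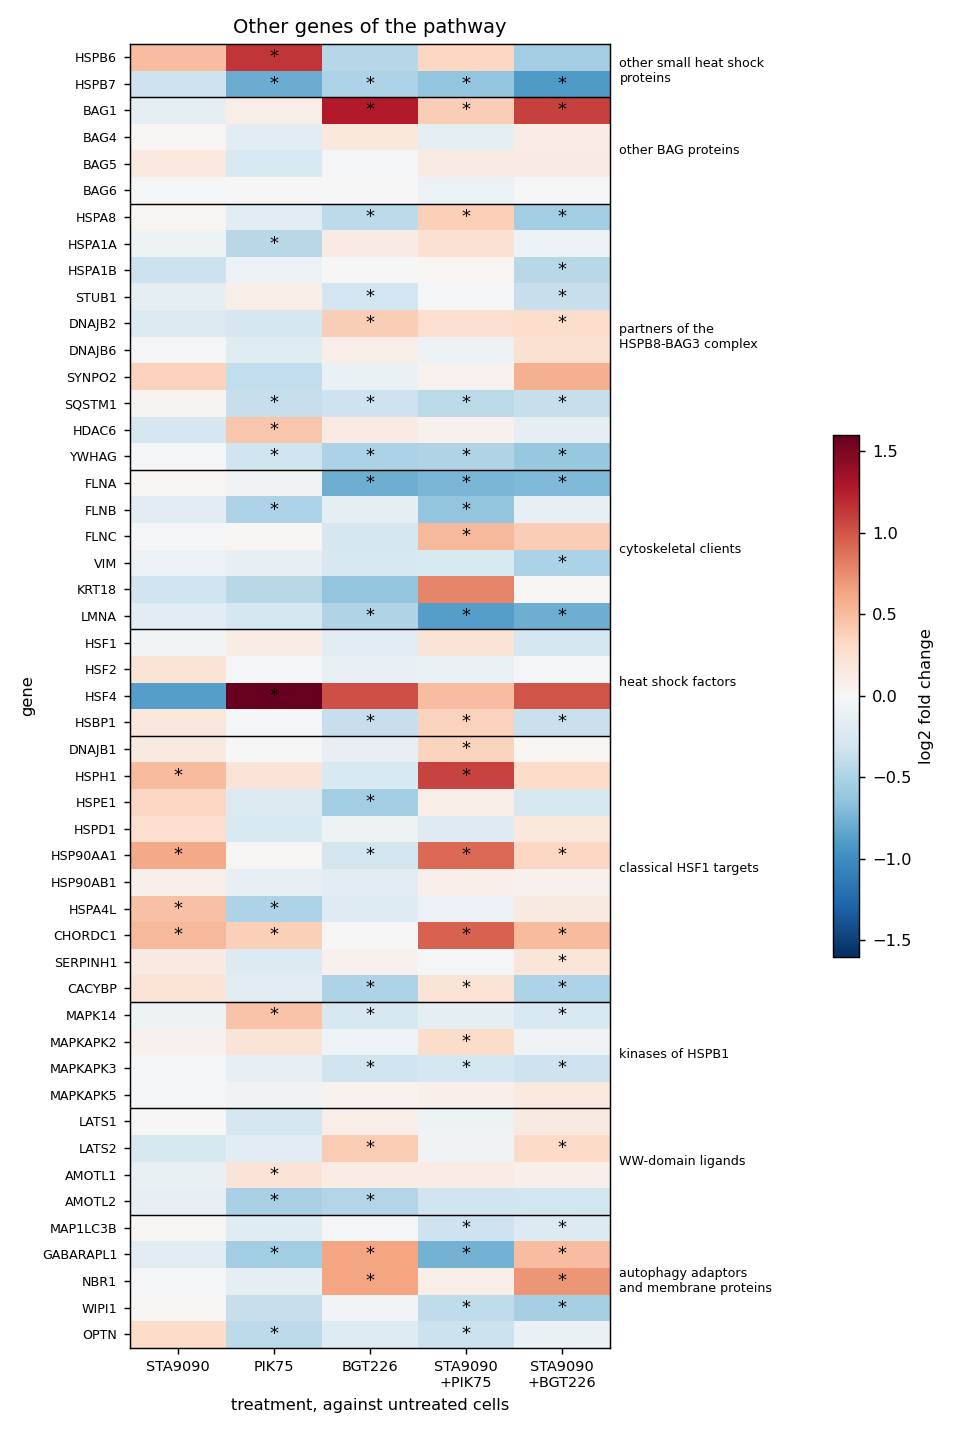
Log2 fold change against untreated cells (colour) of the 49 measured genes around the members (vertical axis, grouped by list) for the 5 treatments (horizontal axis). Asterisks mark an adjusted p under 0.05 by edgeR, and HSPB7 fell in all 4 groups with a PI3K inhibitor while BAG1 rose in 3 of them.

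Among the other small heat shock proteins, HSPB7 and HSPB6 alone were measured, and CRYAA, HSPB2, HSPB3, HSPB9 and ODF1 had too few counts. HSPB7, best known from heart muscle, fell from 60.8 ± 6.08 CPM in untreated cells to 35.0 ± 3.79 CPM with PIK75 (SD, n = 3; log2 fold change -0.80, SE 0.0909, edgeR adjusted p = 3.4e-06). It also fell with BGT226 (-0.49), STA9090+PIK75 (-0.64) and STA9090+BGT226 (-0.91), while STA9090 alone gave -0.33 with an edgeR adjusted p = 0.051, which passed in 5 of 13 alternatives, DESeq2 among them. HSPB6 (HSP20), which rested on 10 to 21 counts in an untreated library, rose with PIK75 (1.14, SE 0.297, edgeR adjusted p = 0.0104) from 1.10 ± 0.420 to 2.45 ± 0.375 CPM. It was at 0.33 with STA9090+PIK75 (edgeR adjusted p = 0.443), and it was higher with PIK75 where CRYAB, HSPB1, HSPB8 and HSPB7 were lower.

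Of the other BAG proteins, BAG1, BAG4, BAG5 and BAG6 were measured, and BAG1 alone passed in any treatment against untreated cells. BAG1, which links HSP70 to the proteasome, rose from 15.4 ± 1.28 CPM to 37.0 ± 2.15 CPM with BGT226 (log2 fold change 1.26, SE 0.101, edgeR adjusted p = 2.33e-08). It rose by 1.10 with STA9090+BGT226 and by 0.39 with STA9090+PIK75. The ratio of BAG3 to BAG1 counts was 2.43 ± 0.325 in untreated libraries, 0.740 ± 0.0186 with BGT226 and 0.850 ± 0.0683 with STA9090+BGT226, and every library of these 2 groups lay under 1, whereas the other groups ran from 1.71 to 3.30.

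All 10 partners of the HSPB8-BAG3 complex were measured. None passed with STA9090 (0 by edgeR, with 2 lower and 0 higher at an unadjusted p under 0.05), 1 rose and 3 fell with PIK75, 1 and 4 with BGT226, 1 and 2 with STA9090+PIK75, and 1 and 5 with STA9090+BGT226. The 1 that rose with PIK75 was HDAC6 (0.44, edgeR adjusted p = 0.000651), and this call ended in 0 of 13 alternatives. With BGT226 it was DNAJB2 (0.39, edgeR adjusted p = 0.00989), which also ended in 0 of 13. The 1 that rose with STA9090+BGT226, again DNAJB2 (0.28), ended in 10 of 13 alternatives (edgeR adjusted p up to 0.174). The STUB1 call with BGT226 ended without untreated replicate 1 or BGT226 replicate 1 or 3. HSPA8, the constitutive HSP70 protein, stood at 989 ± 60.2 CPM in untreated cells and fell to 740 ± 5.0 with BGT226 (-0.42, edgeR adjusted p = 0.00089). With STA9090+BGT226 it fell to 674 ± 15.1 CPM (-0.55, edgeR adjusted p = 3.25e-05), and it rose to 1286 ± 73.7 with STA9090+PIK75 (0.38, edgeR adjusted p = 0.00138). HSPA1A, an inducible HSP70 gene nearly identical to HSPA1B and therefore uncertain, fell with PIK75 (-0.45, edgeR adjusted p = 0.0103). That call ended without untreated replicate 1 (adjusted p = 0.0546). HSPA1B fell with STA9090+BGT226 (-0.45, edgeR adjusted p = 0.00708) and lost this call in 0 of 13 alternatives. SQSTM1, the autophagy receptor p62, fell in all 4 groups with a PI3K inhibitor, at -0.36 with PIK75, -0.34 with BGT226, -0.43 with STA9090+PIK75 and -0.37 with STA9090+BGT226. Without untreated replicate 2 the SQSTM1 calls with BGT226 and STA9090+BGT226 ended (adjusted p up to 0.187), and without BGT226 replicate 3 that with BGT226. The PIK75 call of SQSTM1 ended with the compared groups alone and without untreated replicate 2, PIK75 replicate 1 or PIK75 replicate 2 (adjusted p up to 0.14). YWHAG, a 14-3-3 protein that binds BAG3, fell in the same 4 groups, from -0.32 with PIK75 to -0.60 with STA9090+BGT226, and its PIK75 call ended with the compared groups alone (adjusted p = 0.0503). STUB1, the ubiquitin ligase CHIP, fell with STA9090+BGT226 (-0.36, edgeR adjusted p = 0.00434).

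The transcript of HSF1 itself did not pass against untreated cells, and its log2 fold change ran from -0.27 with STA9090+BGT226 through -0.18 with BGT226, -0.05 with STA9090 and 0.12 with PIK75 to 0.21 with STA9090+PIK75. The value with STA9090+BGT226 passed in 3 of 13 alternatives. HSBP1, a small protein that binds heat shock factors, rose with STA9090+PIK75 (0.37, edgeR adjusted p = 0.00118) and fell with BGT226 (-0.37) and STA9090+BGT226 (-0.36). HSF4 rose with PIK75 (1.59, SE 0.428, edgeR adjusted p = 0.0128), a call that ended without untreated replicate 1 or 3 or PIK75 replicate 3 (adjusted p up to 0.0572). HSF4 rested on 5.47 to 12.5 counts in an untreated library, and with BGT226 it was at 1.03 (edgeR adjusted p = 0.0899) and with STA9090+BGT226 at 1.0 (edgeR adjusted p = 0.0779).

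Of 10 classical HSF1 targets, 4 rose with STA9090: HSP90AA1 (0.61), CHORDC1 (0.52), HSPH1 (0.50) and HSPA4L (0.47). With STA9090+PIK75, 5 rose, with HSPH1, an HSP110 chaperone, going from 25.3 ± 2.68 to 53.6 ± 5.95 CPM (1.09, SE 0.119, edgeR adjusted p = 5.19e-07). In that fit HSP90AA1 rose by 0.90, CHORDC1 by 0.94, DNAJB1 by 0.36 and CACYBP by 0.22. With PIK75, 1 target rose and 1 fell, with BGT226 0 rose and 3 fell (0 rose at an unadjusted p under 0.05), and with STA9090+BGT226 3 rose and 1 fell. Several of these calls did not last over 13 alternatives. CHORDC1, the 1 that rose with PIK75, lost its call in 9, DESeq2 among them, and HSPA4L, the 1 that fell, lost it in 2 (without untreated replicate 3 or PIK75 replicate 1). HSP90AA1 and HSPE1 with BGT226 each lost it in 5, all fits without a library (untreated replicate 1 or 3, or any BGT226 replicate). With STA9090+BGT226, SERPINH1 lost it in 10 and HSP90AA1 in 2 (without untreated replicate 2 or STA9090+BGT226 replicate 2). CACYBP with STA9090+PIK75 lost it in 5, with no filter and without untreated or STA9090+PIK75 replicate 2 or 3. The 4 STA9090 calls ended when the fit held the 2 compared groups alone. Without untreated replicate 1, 2 or 3, or without STA9090 replicate 1 or 3, 1 or 2 of the 49 genes rose with STA9090.

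Of 6 measured cytoskeletal clients 1 fell with PIK75, 2 with BGT226 and 3 with each combination, and 1 (FLNC, 0.52) rose with STA9090+PIK75. The FLNC call ended in DESeq2 and without untreated or STA9090+PIK75 replicate 2 or 3 (edgeR adjusted p up to 0.109). FLNA, the filamin that crosslinks actin, stood at 1983 ± 211 CPM in untreated cells and 1157 ± 34.1 CPM with BGT226 (-0.78, SE 0.113, edgeR adjusted p = 3.58e-05), and fell with both combinations. LMNA, the nuclear lamin, fell with BGT226 (-0.48), STA9090+PIK75 (-0.88) and STA9090+BGT226 (-0.78). The list of HSPB1 kinases held 4 genes, of which MAPK14 acts upstream of the others. Of these 1 (MAPK14) rose with PIK75, and 2 (MAPK14 and MAPKAPK3) fell with BGT226 and with STA9090+BGT226. In the same list 1 rose and 1 fell with STA9090+PIK75. The kinase calls with STA9090+PIK75 each ended without 1 library (MAPKAPK2 without untreated replicate 3, MAPKAPK3 without STA9090+PIK75 replicate 2), and those of MAPK14 with BGT226 and STA9090+BGT226 ended without untreated replicate 2. MAPK14, the p38 kinase upstream of HSPB1 phosphorylation, rose with PIK75 from 77.5 ± 4.41 to 106.2 ± 4.64 CPM (0.45, edgeR adjusted p = 9.1e-05). Of 5 autophagy adaptors and membrane proteins 2 fell with PIK75 and 4 with STA9090+PIK75, while 2 rose with BGT226, and 2 rose and 2 fell with STA9090+BGT226. Of those that fell, OPTN lost its call in 5 of 13 alternatives with PIK75 (the compared groups alone, and without untreated replicate 1 or 3 or PIK75 replicate 1 or 2). With STA9090+PIK75, OPTN lost it in 6 (DESeq2, and without untreated replicate 1 or 3 or any STA9090+PIK75 replicate) and WIPI1 in 4 (without untreated replicate 2 or 3 or STA9090+PIK75 replicate 1 or 2). MAP1LC3B with STA9090+BGT226 lost it in 5 (without any untreated replicate or STA9090+BGT226 replicate 2 or 3). GABARAPL1, a protein of autophagosome membranes, rose with BGT226 (0.64) and STA9090+BGT226 (0.49) and fell with PIK75 (-0.56) and STA9090+PIK75 (-0.76). NBR1, an autophagy receptor related to p62, rose with BGT226 (0.63) and STA9090+BGT226 (0.70). Of 4 ligands of the BAG3 WW domain LATS2, a Hippo pathway kinase, rose with BGT226 (0.40) and STA9090+BGT226 (0.31), while AMOTL2 fell with BGT226 (-0.47) and PIK75 (-0.52) and AMOTL1 rose with PIK75 (0.21). AMOTL1 lost its call in 6 of 13 alternatives: no filter, the compared groups alone, and without untreated replicate 2 or 3 or PIK75 replicate 1 or 2. AMOTL2 lost it without PIK75 replicate 1, and with BGT226 without untreated replicate 2 or BGT226 replicate 3. LATS2 with STA9090+BGT226 lost it without untreated replicate 2 or STA9090+BGT226 replicate 1 (edgeR adjusted p up to 0.0605).

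Set against each other, the PI3K inhibitors left some of these genes far apart. HSPB6 was higher with PIK75 than with BGT226 (log2 difference 1.599, SE 0.308, edgeR adjusted p = 0.000469), and GABARAPL1 (-1.19, SE 0.0896, edgeR adjusted p = 5.22e-09) and BAG1 (-1.15, SE 0.101, edgeR adjusted p = 3.7e-08) were lower. Between the combinations GABARAPL1 was lower with STA9090+PIK75 (-1.25, SE 0.0909). KRT18, a simple epithelial keratin at 14 to 27 counts in an untreated library, was higher with STA9090+PIK75 than with PIK75 (1.23, SE 0.337, edgeR adjusted p = 0.0105) and than with STA9090 (1.10, SE 0.33). Without STA9090+PIK75 replicate 1 both KRT18 calls ended, and so did the first without PIK75 replicate 2 and the second without STA9090 replicate 1.

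The STA9090 by PIK75 interaction was called in 6 of the 49 genes, 4 positive and 2 negative, where 9.27% of all tested genes were called in either direction. HSPA1A (0.78, SE 0.163, edgeR adjusted p = 0.00469), DNAJB2 (0.75, SE 0.158), HSPA8 (0.54, SE 0.119) and HSPB7 (0.49, SE 0.129) were positive. FLNA (-0.70, SE 0.159) and MAPK14 (-0.52, SE 0.0973) were negative. The HSPB7 call ended without PIK75 replicate 2 (adjusted p = 0.0596). The STA9090 by BGT226 interaction was called in 0 of the 49 genes by edgeR, beside 0.00633% of all genes. At an unadjusted p under 0.05 by edgeR there were 2, 1 in each direction. DESeq2 called 0 of the 36 list genes to which it gave an adjusted p.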

How the data were processed

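The deposited file holds unnormalized expected counts, as the authors' quantification gave them, for each gene in each of the 18 libraries. Per the submitters' processing notes, bcl2fastq 2.20, cutadapt 1.18, STAR 2.7.0f, RSEM 1.3.1 and hg38 were used; their settings, the strand setting and the annotation release were not given in the labels or notes. Per the labels' protocols, libraries were stranded, paired-end and depleted of ribosomal RNA. Of the gene IDs 99.54% are in GENCODE 29 without the version (80.61% with it), which gave positions and lengths. The 18 totals ran from 10.2 to 21.1 M counts, and replicates are separate cultures only as far as the labels' word biological says.

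Counts were rounded, filtered with filterByExpr of edgeR 4.0.16 (minimum count 10, total 15; 15787 genes) and scaled by TMM in R 4.3.3. All 18 libraries entered 1 fit with a mean per group; quasi-likelihood tests were two-sided with Benjamini-Hochberg adjustment and a threshold of 0.05. Standard errors (SE) were derived from the F statistic, as the unsigned log2 fold change over its root. Correlations used log2(CPM + 0.5). The fit was tested on simulated data. Poisson intervals cover counting error only.

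The members, lists, comparisons and rule for named genes were chosen with earlier results of these data known; the difference between the STA9090 steps with PIK75 and with BGT226 was added after the files were seen. The rule named the members, HSP90AA1, in each list up to 4 called genes of smallest adjusted p per comparison and list genes of at least 1 log2 unit, of which those that repeat a gene's other values or rest on few HSF4 counts were not all printed, and the 3 closest patterns per member; HSF1, HSPA1B, CACYBP, the other BAG proteins and further values of named genes were added for their role after their values were seen. Alternatives were RLE, other filters, DESeq2 1.42.0, the compared groups alone, a replicate block, the 50 most counted genes left out, single libraries left out and another gene length.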

Additional observations from a re-analysis of the deposited data

Results flagged for a closer look

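In 6 of the 49 genes around the members the STA9090 step differed by edgeR's interaction test between cells with and without PIK75. Of all tested genes 9.27% were called by this test in either direction. The term was positive for HSPA1A (0.78), DNAJB2 (0.75), HSPA8 (0.54) and HSPB7 (0.49) and negative for FLNA (-0.70) and MAPK14 (-0.52). For HSPA8 the step was 0.03 without PIK75 and 0.56 with it, and for HSPA1A it was -0.08 and 0.70. HSPA1A shares reads with HSPA1B, whose interaction term was 0.46 (edgeR adjusted p = 0.107). For MAPK14 the step was -0.08 without PIK75 and -0.60 with it. For FLNA it was 0.03 and -0.67. For DNAJB2 the step was -0.22 without PIK75 and 0.53 with it, and for HSPB7 -0.33 and 0.16. The HSPB7 interaction call ended without PIK75 replicate 2 (edgeR adjusted p = 0.0596).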

How the results depend on the processing

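Under the alternatives no called gene, and no member difference between groups that did not overlap, changed sign. Of the 56 member differences, 11 changed sign in at least 1 alternative, all of them reported with overlapping groups or as differences between steps: HSPB8 with STA9090 (-0.029 to 0.25), HSPB1 for PIK75 against BGT226 (-0.055 to 0.19), CRYAB for STA9090+BGT226 against BGT226 (-0.24 to 0.12), the interactions with BGT226 of HSPB1 (-0.084 to 0.21) and HSPB8 (-0.15 to 0.12), and 6 of BAG3. Of the 4 members' log2 fold changes, 783 values stayed within 1 replicate SD of the reported one and 17 moved further, all when 1 library was left out. Leaving out 1 library in turn gave CRYAB a range of -2.54 to -2.0 for STA9090+PIK75 against untreated cells, -1.04 to -0.50 against PIK75, -2.82 to -2.27 against STA9090 and -1.32 to -0.76 against STA9090+BGT226. The CRYAB interaction of STA9090 with PIK75 ranged from -1.31 to -0.77, and the difference between its STA9090 steps with PIK75 and BGT226 from -1.0 to -0.46. BAG3 ranged from -0.16 to 0.0301 for PIK75 against untreated cells, -0.059 to 0.13 for STA9090+PIK75 against PIK75, 0.28 to 0.47 for PIK75 against BGT226, -0.17 to 0.0229 for the interaction with PIK75 and -0.0934 to 0.10 for the difference between steps. BAG3 also ranged from -0.077 to 0.015 for STA9090+PIK75 against untreated cells and -0.023 to 0.066 for STA9090+BGT226 against BGT226. Its range was 0.059 to 0.15 for STA9090 against untreated cells and -0.13 to -0.025 for the interaction with BGT226. Small differences of other members moved by over 1.5 times. Those of HSPB1 were with STA9090 (0.018 to 0.30) and for STA9090+PIK75 against STA9090 (0.033 to 0.32). HSPB8 moved so for STA9090+PIK75 against untreated cells (-0.33 to -0.089) and against STA9090 (-0.40 to -0.20). It also did for PIK75 against BGT226 (-0.14 to -0.0084) and for STA9090+BGT226 against BGT226 (0.056 to 0.13). CRYAB did with STA9090 (0.17 to 0.41), for PIK75 against BGT226 (-0.49 to -0.23) and in the interaction with BGT226 (-0.51 to -0.15).

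Of the 49 genes around the members, 4 rose with STA9090, against 0 when the 2 compared groups alone were fitted and 1 to 4 with 1 library left out. With STA9090 0 fell, against 2 with no filter, 1 with a filter of 1 CPM, 2 by DESeq2, 1 without the 50 most counted genes and 0 to 1 with 1 library left out. Leave-one-out counts were 9 to 13 for genes that fell with BGT226 and 5 to 9 for genes that rose with STA9090+BGT226. Of the values of single genes, 1372 kept their side of the threshold, 126 lost a call and 27 gained one. HSF1, which did not pass with STA9090 or PIK75 in any of these, ranged with 1 library left out from -0.17 to 0.0586 with STA9090 (0.0573 without untreated replicate 2) and from -0.0061 to 0.229 with PIK75. The causes were not tested. FLNA and HSPA8 have no value without the 50 most counted genes, since they are among them. With the mean transcript length in place of the exon union, all 4 levels per kilobase were higher.

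Replicate numbers did not pair the libraries: same-numbered libraries had a median correlation of -0.03 over 45 pairs, and 3 of 18 libraries correlated best with their own number. With a replicate block 3 genes rose with STA9090 and 0 fell. The block gave 6 and 9 for PIK75, 5 and 14 for BGT226, 10 and 11 for STA9090+PIK75, and 6 and 15 for STA9090+BGT226. CRYAB is limited most by depth, with 3 to 48 counts in a library.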
